A study of Mus musculus with 32 samples.

Results

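The granule genes of maturing neutrophils were followed in the lungs and primary tumors of mice with and without host Clic4. The set held 8 genes, taken by symbol from a list of neutrophil granule and granulocyte surface genes: Mpo, Elane, Ngp, Camp, Ltf, Lcn2, Cd177 and Ly6g. All 8 had a row among the 29511 genes of the deposited count table, and their levels were read beside S100a8, S100a9 and Cxcr2, which mark later stages of neutrophil life. The measurements came from poly(A) RNA sequencing of whole frozen tissue in 32 samples. Hosts were virgin female FVB/N mice, either wildtype (WT) or Clic4 knockout (KO) littermates, and the 6DT1 line, a mammary tumor line of the same strain that retained its own Clic4, was implanted in the mammary fat pad. Control lungs from tumor-free mice (4 WT, 4 KO) stood beside lungs taken 14 days after implantation, before visible metastases (6 WT, 6 KO), and beside the primary tumors taken at 14 days (6 from WT hosts, 6 from KO hosts). The knockout was carried by every cell of the host and not by the implanted tumor cells.

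Neutrophils fill their granules in sequence as they mature in the bone marrow. Azurophil granule proteins such as myeloperoxidase and neutrophil elastase are transcribed at the promyelocyte stage, specific granule proteins such as lactoferrin, the cathelicidin and neutrophilic granule protein follow at the myelocyte and metamyelocyte stages, and the chemokine receptor Cxcr2 and the calcium-binding pair S100a8 and S100a9 are abundant in cells ready to leave the marrow. Granule transcripts in a tissue outside the marrow are therefore often read for neutrophils released early, although Ltf and Lcn2 are also made by secretory epithelia and, for Lcn2, by macrophages.

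The 8 genes did not move as 1 set in these tissues. Among the 4 members with enough reads to test, Ngp alone passed the limits in the lungs, 3.33-fold higher at 14 days than in controls when both genotypes were averaged. Ngp had enough reads to be tested only through the 14-day lungs, where it is high, and its call was lost without 1 WT control lung (edgeR FDR 0.274) and had no adjusted p by DESeq2. Camp, at a lower depth, lay the same way, with a call that also rested on 1 lung. Ltf and Lcn2, the most abundant members, did not accompany the mature neutrophil genes from lung to lung. Ltf varied closely with some airway secretory genes and less closely with others. Lcn2 varied closely with Chil1, Marco and Sftpd and less closely with other macrophage and epithelial genes. Mpo and Elane, the azurophil pair, gave between 0 and 4 reads in any sample. As a check of the set's name, the specific granule genes Ngp and Camp were measurable in lungs, whereas the earliest granule genes were at the limit of detection.

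Libraries held between 4446323 and 8318711 assigned reads (median 5384934). Clic4, the targeted gene, followed the labels in every lung, at 154.58 to 229.65 FPKM (fragments per kilobase of transcript, scaled to the sequenced total) in WT lungs and 55.42 to 74.56 in KO lungs. Reads of Clic4 thus remained in KO lungs, at a log2 fold change of -1.49 ± 0.09 (SE) at 14 days. In tumors, whose cancer cells carry the gene, Clic4 lay at 74.65 to 82.23 FPKM in WT hosts and 58.92 to 68.98 in KO hosts. The lung markers Sftpc, Sftpb, Ager, Scgb1a1 and Cldn18 summed to 30727 to 36996 FPKM in lungs and to at most 2.68 in tumors. Replicate 6 of the KO 14-day lungs stood apart with 23817 FPKM summed over 7 erythroid genes, against 6103 to 14178 in the other 19 lungs, and it also held the highest Camp, S100a9 and, within its genotype, Ngp, so results on those genes were also computed without it. In bulk tissue, fewer cells of a type and less RNA per cell cannot be told apart. The labels do not tie the samples to cages or litters, and p-values measure the spread between these samples.

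Camp, Ngp and Ltf lie in that order on chromosome 9 (GRCm38, GENCODE annotation), within 1.195 Mb: Camp at chr9:109847379-109849617 on the minus strand, Ngp at chr9:110419747-110423012 and Ltf at chr9:111019271-111042767 on the plus strand, each a protein-coding gene. Lcn2 is at chr2:32384633-32388252 on the minus strand, Cd177 at chr7:24743983-24760311, Ly6g at chr15:75155240-75159126, Mpo at chr11:87793581-87804413 and Elane at chr10:79886247-79888215. The neighbours on chromosome 9 did not share 1 pattern, with log2 fold changes at 14 days, averaged over genotypes, of 1.74 for Ngp and 0.12 for Ltf. The promoters of the 4 members that carry these patterns are shown from RefSeq (GRCm38.p6), 250 bases before to 50 bases after the transcript start, 5′ to 3′ on the coding strand. Capitals mark matches to TTGCNNAA on either strand, the letters of a C/EBP site, since C/EBP factors drive the specific granule program.
Ngp (chr9:110419558-110419857, plus strand): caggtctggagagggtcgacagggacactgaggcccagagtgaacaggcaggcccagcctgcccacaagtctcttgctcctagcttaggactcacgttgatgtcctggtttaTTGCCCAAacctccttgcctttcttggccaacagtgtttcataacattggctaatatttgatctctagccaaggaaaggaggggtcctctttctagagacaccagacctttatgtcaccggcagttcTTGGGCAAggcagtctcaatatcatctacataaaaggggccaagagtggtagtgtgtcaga
Camp (chr9:109849407-109849706, minus strand): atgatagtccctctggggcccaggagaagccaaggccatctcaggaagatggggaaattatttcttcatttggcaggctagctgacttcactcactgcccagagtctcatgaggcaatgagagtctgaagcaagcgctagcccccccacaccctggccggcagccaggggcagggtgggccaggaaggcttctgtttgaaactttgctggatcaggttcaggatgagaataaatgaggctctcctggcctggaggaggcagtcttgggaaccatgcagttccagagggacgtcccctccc
Ltf (chr9:111019042-111019341, plus strand): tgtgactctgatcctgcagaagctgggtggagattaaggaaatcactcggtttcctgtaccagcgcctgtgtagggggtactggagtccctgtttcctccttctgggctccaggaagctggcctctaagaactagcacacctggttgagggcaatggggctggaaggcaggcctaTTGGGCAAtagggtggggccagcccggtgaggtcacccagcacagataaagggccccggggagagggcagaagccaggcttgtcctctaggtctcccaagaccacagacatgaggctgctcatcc
Lcn2 (chr2:32387690-32387989, minus strand): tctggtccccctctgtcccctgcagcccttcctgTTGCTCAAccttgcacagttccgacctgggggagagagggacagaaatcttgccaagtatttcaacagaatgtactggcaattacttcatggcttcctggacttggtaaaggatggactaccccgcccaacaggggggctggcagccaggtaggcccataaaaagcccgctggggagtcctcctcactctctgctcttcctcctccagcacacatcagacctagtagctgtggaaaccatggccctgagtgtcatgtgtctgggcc
Ngp held 2 matches, at 138 and 11 bases before the start (first base of each match), Ltf held 1 at 75 bases and Lcn2 1 at 216 bases before the start, and Camp held none in this window. Among 32851 RefSeq promoters of the same length, 10.8% held the letters. GAGGAA, the core of a PU.1 site, was found on either strand in Ltf and Lcn2 but not in Ngp or Camp, and 28.28% of all promoters held it. A match in letters is a description of the sequence.

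The azurophil members were at or near 0. Mpo, the myeloperoxidase that makes hypochlorous acid, gave 0 reads in all 4 WT control lungs, and 2, 6 and 6 reads summed over the KO control, WT 14-day and KO 14-day lungs. Its sums in tumors were 7 reads in WT hosts and 10 in KO hosts, or 0.225 and 0.314 RPM (reads scaled to the library total), against at most 0.182 in a lung group. Elane, the neutrophil elastase, gave 0, 1, 1 and 0 reads over the same 4 lung groups and 2 and 1 over the WT and KO host tumors. By a limit of 3 counts, a count of 0 in the WT control lungs allows up to 0.118 RPM, counting error only, and an Mpo or Elane difference below that was not detectable at this depth. Of the other azurophil genes, Ms4a3 had no read in any lung, and Prtn3 and Ctsg, serine proteases of the same granule, summed to 17 and 2 reads over the 20 lungs. In tumors Prtn3 and Ctsg had 21 and 27 reads in WT hosts and 31 and 18 in KO hosts. Mast cells also hold Ctsg, and 5 mast cell and basophil markers (Cpa3, Mcpt4, Tpsb2, Cma1, Mcpt8) summed to 13.9 to 54.6 FPKM in tumors against 1.72 to 4.19 in lungs, and their part in the Ctsg reads was not tested. None of the 6 azurophil genes had enough reads for the model in lungs or tumors.

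**Figure D1:**
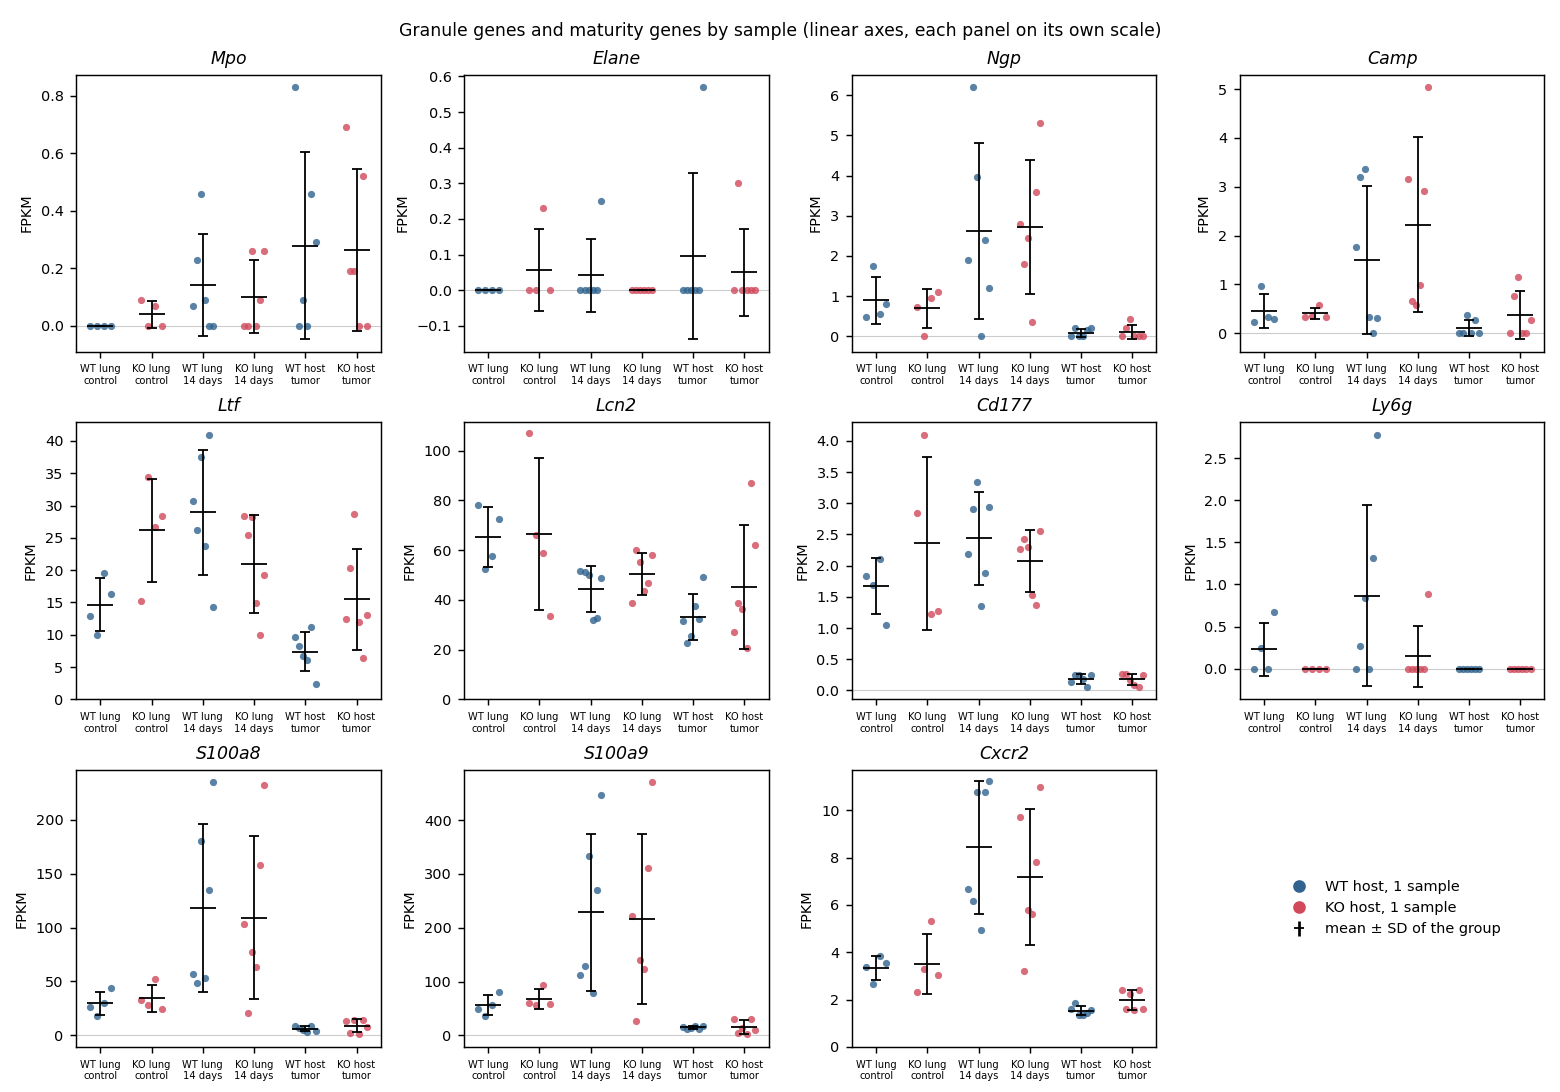
FPKM of the 8 granule genes and of S100a8, S100a9 and Cxcr2 in 6 groups; each point is 1 sample (blue, WT hosts; red, KO hosts), the horizontal bar is the group mean and the whiskers are ± SD, with 4 control lungs, 6 lungs and 6 tumors at 14 days per genotype. Ngp and Camp reach 6.2 and 5.04 FPKM in 14-day lungs against at most 1.74 and 0.96 in control lungs, Lcn2 is lower in the 6 WT 14-day lungs than in the 4 WT control lungs, and Mpo and Elane stay under 1 FPKM.

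Ngp encodes neutrophilic granule protein, a cystatin-like protein of the specific granule made in myelocytes and metamyelocytes. In control lungs it measured 0.48, 1.74, 0.56 and 0.81 FPKM in WT mice and 0.74, 0, 0.95 and 1.1 FPKM in KO mice. In 14-day lungs it ran from 0 through a median of 2.16 to 6.2 FPKM in WT mice and from 0.36 through 2.63 to 5.31 FPKM in KO mice. At 14 days 4 of 6 WT and 5 of 6 KO lungs lay above the highest control of their genotype. Replicate 4 of the WT lungs was below the lowest control, and replicate 6 of the WT and replicate 4 of the KO lungs were among their controls. The log2 fold change against controls was 1.56 ± 0.71 in WT lungs and 1.91 ± 0.75 in KO lungs, and neither passed alone (edgeR quasi-likelihood test, FDR 0.394 and 0.443; limits FDR under 0.25 and 1.5-fold). Averaged over genotypes it rose by 1.74 ± 0.52 on the log2 scale (FDR 0.152), past the limits, as 0.574% of the 16029 genes were. Ngp met the minimum count for testing through the 14-day lungs, where it is high, so it had to differ in that direction, and nothing is read from its call beside that share. The call was lost without replicate 1 of the WT control lungs (1.61, FDR 0.274) and kept without the erythroid-rich KO lung (1.57, FDR 0.185). DESeq2 gave 1.75 ± 0.50 and no adjusted p.

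Camp, the cathelicidin antimicrobial peptide of the same granule, was read 6 and 5 times over the WT and KO control lungs and 29 and 40 times over the WT and KO 14-day lungs. These sums were 0.237 (95% exact Poisson interval 0.0868 to 0.515) and 0.228 (0.0740 to 0.532) RPM in controls and 0.841 (0.564 to 1.21) and 1.21 (0.866 to 1.65) at 14 days, intervals that cover counting error only. Single lungs differed widely, from 0 to 3.37 FPKM in WT and from 0.57 to 5.04 FPKM in KO mice at 14 days. Camp was above every control of its genotype in 3 of 6 WT and 5 of 6 KO lungs. It was too low for the filtered model. Without the filter the log2 fold change averaged over genotypes was 2.02 ± 0.59 (edgeR, FDR 0.204), past the limits, with 1.71 ± 0.83 in WT and 2.33 ± 0.83 in KO lungs, which did not pass. The averaged call was lost without the erythroid-rich KO lung, which held 17 of the 40 KO reads (1.79 ± 0.59, edgeR FDR 0.258), an alternative chosen after the values were seen.

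Ltf encodes lactoferrin, the iron-binding protein that defines the specific granule and that is also secreted by mucosal glands. It measured 12.88, 9.95, 19.59 and 16.31 FPKM in WT control lungs and 15.19, 34.37, 26.7 and 28.33 FPKM in KO control lungs. At 14 days it ran from 14.37 through 28.5 to 41 FPKM in WT lungs and from 9.89 through 22.3 to 28.45 FPKM in KO lungs. On this scale 5 of 6 WT 14-day lungs lay above the highest WT control and no KO 14-day lung lay above the highest KO control. Counts gave a smaller separation, with 2 of 6 WT 14-day lungs above the highest control in CPM (counts scaled to the library total). The ratio of FPKM to CPM for Ltf ranged from 0.405 to 1.25 between samples, a 3.09-fold range, where it varied by at most 1.08-fold for Ngp, Lcn2, Cd177 and the maturity genes over samples with 10 or more reads. That ratio had a median of 0.662 in WT 14-day lungs and 0.450 in WT control lungs. In the count model Ltf did not pass in either genotype, at 0.54 ± 0.31 in WT (FDR 0.507) and -0.30 ± 0.30 in KO lungs (FDR 0.817), and the difference between those responses was -0.84 ± 0.43 (interaction, FDR 0.612).

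Lcn2, the siderophore-binding lipocalin of specific granules, epithelia and macrophages, was the most abundant member in every group. WT control lungs held 78.08, 52.49, 57.6 and 72.62 FPKM and KO control lungs 107.16, 66.21, 58.67 and 33.36 FPKM. At 14 days the lungs ran from 32.04 through 49.3 to 51.61 FPKM in WT and from 38.74 through 51 to 59.95 FPKM in KO mice. All 6 WT 14-day lungs lay below the lowest WT control, by a small gap (51.61 against 52.49 FPKM), while the KO groups overlapped. The share of all genes with no overlap between groups was not computed, for this or the other genes. The log2 fold change was -0.56 ± 0.21 in WT (FDR 0.317) and -0.38 ± 0.21 in KO lungs (FDR 0.658), and -0.47 ± 0.15 averaged over genotypes (FDR 0.187), which is past the FDR limit but short of 1.5-fold. With 1 lung left out the averaged value ran from -0.58 to -0.31 (edgeR FDR 0.089 to 0.412), so the FDR limit was not always met. The KO value ran from -0.59 to -0.05. The interaction was 0.19, and no split between genotypes is read. The Lcn2 changes at 14 days were negative where those of Ngp and the maturity genes were positive.

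Cd177 encodes a neutrophil surface glycoprotein also stored in specific granules, and Ly6g the antigen by which mouse neutrophils are usually sorted. Cd177 ran from 1.05 to 2.11 FPKM in WT controls, 1.22 to 4.1 in KO controls, 1.36 to 3.34 in WT and 1.37 to 2.55 in KO 14-day lungs, all groups overlapping. Its log2 fold changes were 0.54 ± 0.31 in WT (FDR 0.509) and -0.14 ± 0.31 in KO lungs (FDR 0.927). Ly6g gave 4 and 0 reads over WT and KO controls, 10 and 4 over WT and KO 14-day lungs and no read in any tumor. Only 7 of 20 lungs had a Ly6g read, and 1 count of Ly6g was worth 1.32 FPKM in 1 lung but 0.27 in another, so its FPKM is not compared. Its level is uncertain at these counts. Ly6g also belongs to a family of close copies among which the quantification could divide reads, and that was not tested.

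By counts, 0 of the 4 tested members passed in WT lungs, where 0.574% of all genes passed, and 0 in KO lungs, where 0.262% did (edgeR). At an unadjusted p under 0.05 there were 2 in WT (Ngp, Lcn2) and 1 in KO lungs (Ngp), beside 11.75% and 8.64% of all genes, and DESeq2, which gave Ngp no adjusted p in lungs, called 0 in each. The median log2 fold change of the 4 tested members was 0.54 in WT and -0.22 in KO lungs, beside 0.003 and 0.004 over all genes tested. The 3 maturity genes had medians of 2.02 and 1.67.

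**Figure D2:**
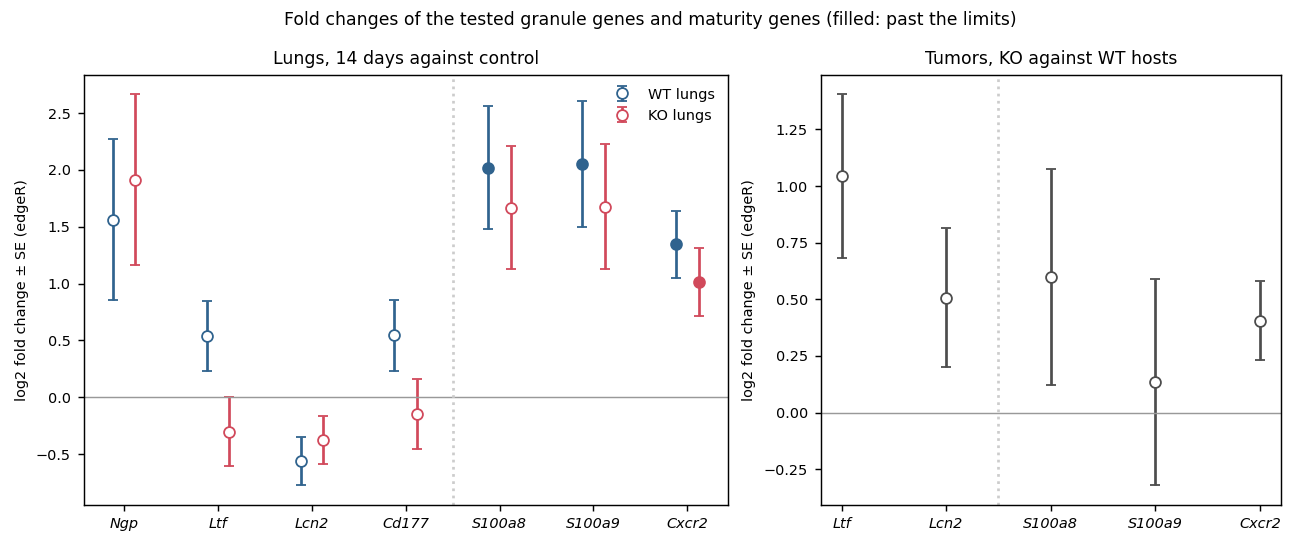
Log2 fold changes ± SE from edgeR; left, 14-day against control lungs in WT (blue) and KO (red) mice for the 4 tested granule genes and, right of the dotted line, S100a8, S100a9 and Cxcr2; right, tumors of KO against WT hosts for the members tested there. Filled points passed the limits of their comparison: in lungs S100a8 and S100a9 in WT mice and Cxcr2 in both genotypes, and none of the 4 granule genes plotted.

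S100a8 and S100a9, which form calprotectin, and Cxcr2, the receptor that draws mature neutrophils out of the marrow, passed the limits in WT lungs, where none of the 4 tested members did. S100a8 measured 26.06, 17.64, 29.96 and 43.97 FPKM in WT controls and 32.27, 28.13, 52.12 and 23.87 in KO controls, then 48.14 through 95.8 to 235.14 in WT and 20.13 through 89.9 to 232.59 in KO 14-day lungs. WT groups did not overlap, and in KO mice replicate 2 of the 14-day lungs lay below the lowest control and the other 5 above the highest. The log2 fold changes in WT lungs were 2.02 ± 0.54 for S100a8 (FDR 0.164), 2.05 ± 0.56 for S100a9 (FDR 0.169) and 1.34 ± 0.29 for Cxcr2 (FDR 0.101), all past the limits. In KO lungs Cxcr2 passed at 1.02 ± 0.30 (FDR 0.248), and S100a8 and S100a9 had 1.67 ± 0.54 and 1.68 ± 0.55 (FDR 0.304 for both). DESeq2 called all 3 genes in both genotypes, S100a8 and S100a9 in KO lungs at adjusted p of 0.161 and 0.189, so a split between genotypes is not read from the edgeR calls. The WT calls for S100a8 and S100a9 were lost without replicate 1, 2 or 3 of the WT controls or replicate 6 of the WT 14-day lungs (FDR 0.306 to 0.341), that for Cxcr2 in WT lungs without control replicate 2 (FDR 0.272), and that for Cxcr2 in KO lungs when any 1 of 9 of the 10 KO lungs was left out (FDR up to 0.471). Averaged over genotypes the 3 genes passed at 1.84, 1.87 and 1.18.

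Set against S100a8 in the same sample, Lcn2 had a lower place in 14-day lungs than in controls, without overlap in WT mice, and the ranges of Ngp and Ltf overlapped. On the log2(FPKM + 1) scale Ngp lay 3.98 ± 0.83 (SD, n = 4) below S100a8 in WT controls and 5.02 ± 1.36 (n = 6) below it in WT 14-day lungs, and 4.36 ± 0.59 and 4.68 ± 0.94 below it in KO controls and 14-day lungs. Those ranges overlapped in both genotypes, and the pseudocount of 1 is as large as the level of Ngp in controls. Lcn2 moved from 1.17 ± 0.42 above S100a8 in WT controls to -1.14 ± 1.01 at 14 days, and from 0.89 ± 0.70 to -0.76 ± 1.28 in KO mice. Ltf lay 0.92 ± 0.34 below S100a8 in WT controls and 1.79 ± 1.18 below it at 14 days, and 0.37 ± 0.72 and 2.06 ± 1.52 below it in KO controls and 14-day lungs. In tumors Lcn2 lay 2.36 ± 0.76 above S100a8 in WT and 2.51 ± 1.13 above it in KO hosts, exceeding S100a8 in 12 of 12 tumors but in 10 of 20 lungs.

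**Figure D3:**
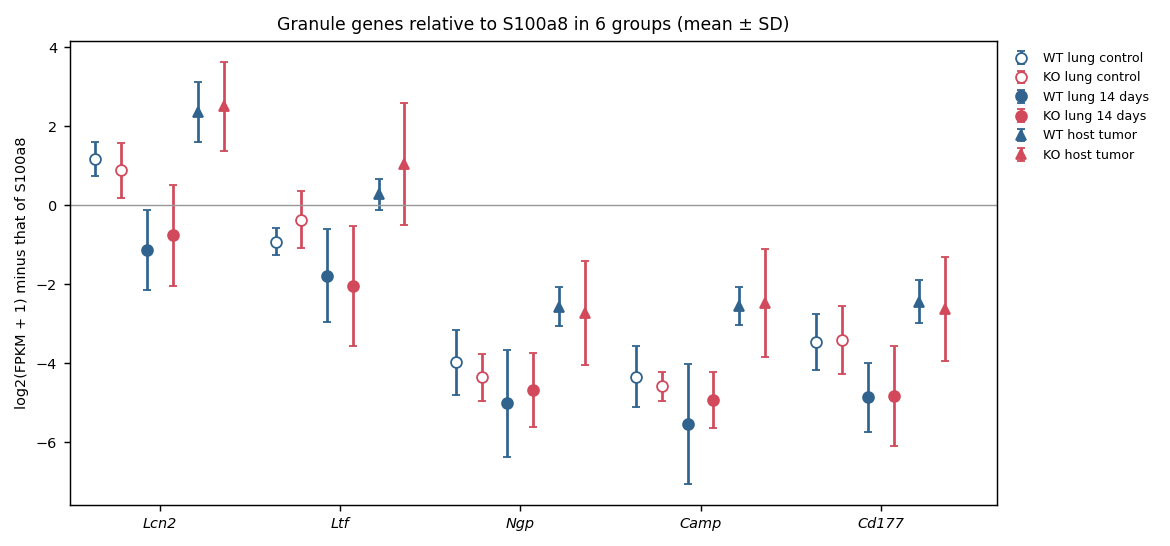
Mean ± SD of log2(FPKM + 1) of 5 granule genes minus that of S100a8, by group (circles, lungs, open for controls; triangles, tumors; blue, WT; red, KO). Lcn2 goes from 1.17 above S100a8 in WT control lungs to -1.14 in WT 14-day lungs and 2.36 in WT host tumors, while Ngp, Camp and Cd177 lie below S100a8 in all 6 groups.

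Across the 20 lungs the members separated by the genes they varied with. These correlations are on log2 CPM, share libraries and depth, mix groups whose means differ, and are given as descriptions. Ngp went with Camp (Pearson r = 0.72, Spearman rho = 0.61; r = 0.77 without the 2 lungs farthest in Ngp) and with S100a9 (r = 0.55, rho = 0.63; r = 0.55 without the 2), Mmp8 (rho = 0.67) and Cxcr2 (rho = 0.61). Within groups the relation with S100a9 differed: rho was 0.94 over the 6 KO 14-day lungs (r = 0.52), 0.26 over the 6 WT 14-day lungs (r = 0.39) and 0.17 over the 8 controls. Replicate 2 of the WT 14-day lungs, for example, had the highest Ngp of all lungs, 6.2 FPKM, with only 48.14 FPKM of S100a8, and replicate 6 had 235.14 FPKM of S100a8 with 1.21 FPKM of Ngp.

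The 8 genes other than members whose levels ranked most like Ngp over the 20 lungs, of 16029 tested, were Plek, Siglece, Gstcd, Erich1, Lilr4b, Socs3, Rnf11 and Prkar2b, with rho from 0.72 to 0.79. Plek, pleckstrin of platelets and leukocytes, led at 0.79, and Siglece and Lilr4b are receptors of myeloid cells. None of the 8 is on the neutrophil lists used here, and no cell type is read from them. Larp7 and Vps33a, the genes closest to Cd177, had rho of 0.815 and 0.809 over the same lungs. In likeness to Ngp, S100a9 ranked 50, Cxcr2 69 and S100a8 290. The rho of Ngp with S100a8 was 0.51 over 20 lungs, -0.20 in WT 14-day, 0.94 in KO 14-day and -0.19 in control lungs. Cd177 ranked 1481 and Ltf 4937, and Lcn2 13099 with a rho of -0.23. That last value joined groups that differed: rho of Ngp with Lcn2 was 0.36 over the 12 lungs at 14 days and -0.60 over the 8 controls.

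Ltf varied with some genes of airway secretory cells. Its 4 closest genes were Bpifa1 (r = 0.83, rho = 0.84; r = 0.77 without the 2 farthest lungs), Scgb3a1 (rho = 0.81), Bpifb1 and Reg3g (rho = 0.79 each), all secreted by airway epithelium, and its rho with S100a8 was -0.01. The next 4 were RP23-262J12.2, C1rb, Car3 and Fabp4, with rho from 0.71 to 0.76, and Car3 and Fabp4 are known from fat cells rather than airway secretion. Scgb1a1, the club cell secretoglobin, and Muc5b, an airway mucin, followed Ltf less closely, with rho of 0.36 and 0.38 over 20 lungs and 0.15 and 0.24 over the 12 lungs at 14 days. These nearest genes were listed after the values were seen, although 4 of the 9 genes on the epithelial list used here were the same. Within groups the relation with Bpifa1 had rho of 0.66 in WT 14-day, 0.83 in KO 14-day and 0.91 in control lungs. The 9 epithelial markers together summed to 29511 to 36597 FPKM with every marker detected in every lung group. Of the 9, edgeR called 0 at 14 days averaged over genotypes (1 at an unadjusted p under 0.05, 0 by DESeq2), and their part in the level of Ltf was not tested.

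Lcn2 varied with Chil1 (r = 0.93, rho = 0.95; r = 0.87 without the 2 farthest lungs), a chitinase-like protein of macrophages and epithelium, and with Marco (r = 0.77, rho = 0.86; r = 0.73), the scavenger receptor of alveolar macrophages. Chil3, another alveolar macrophage gene, had a rho of only 0.29 with Lcn2, and Sftpd, the surfactant protein D of lung epithelium, was the 4th closest gene at a rho of 0.82. The 8 closest also held Itih4, 2410015M20Rik, Ctsz, Mcm5 and Lynx1, with rho from 0.78 to 0.84. Genes of the epithelial list lay lower, with Lcn2 rho of 0.46 for Sftpc, 0.30 for Reg3g and 0.04 for Muc5b. Bpifb1, Scgb3a1, Bpifa1 and Scgb1a1 had -0.01, -0.08, -0.18 and -0.53. Over the 6 WT 14-day lungs the rho of Lcn2 with Marco was 1.00, over the 6 KO lungs 0.83 and over the 8 controls 0.81. For Lcn2 with S100a8 and Cxcr2 the rho was -0.43 and -0.47 over 20 lungs and -0.07 and -0.08 within the 12 lungs at 14 days. Marco fell in WT lungs at 14 days by 1.42 on the log2 scale (SE 0.25, edgeR FDR 0.0935) and was higher in KO than in WT lungs at 14 days by 0.86 ± 0.24 (FDR 0.235). DESeq2 gave Marco no adjusted p in either comparison and called none of the 5 alveolar macrophage markers in them. Averaged over genotypes, where Lcn2 met the FDR limit with all lungs kept, Marco fell by 0.91 ± 0.17 (edgeR FDR 0.0343) and was the 1 of the 5 called, by DESeq2 as well. In control lungs Chil3 was the 1 called, 0.89 ± 0.20 higher in KO than in WT mice (edgeR FDR 0.168), also by DESeq2. The 5 alveolar macrophage markers as a whole summed to 259.12 to 661.83 FPKM over control lungs and 301.32 to 632.67 at 14 days, with 1 of 5 past the limit in WT lungs. Their part in the level of Lcn2 was not tested. For Cd177 the values pooled over 20 lungs were low, with rho of 0.22 with S100a8, 0.33 with Ngp, 0.30 with Ltf and 0.19 with Lcn2, and they joined groups that differed. Over the 12 lungs at 14 days its rho was 0.55 with Ngp, 0.54 with Lcn2 and 0.41 with S100a9, and over the 8 controls -0.67, 0.29 and -0.48.

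**Figure D4:**
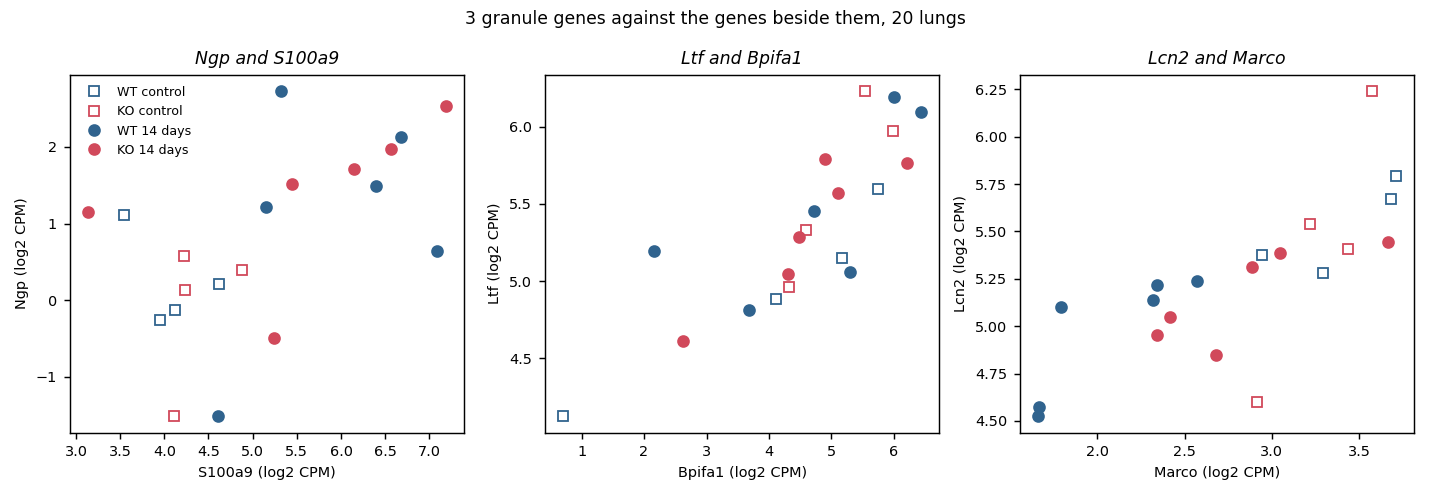
Log2 CPM in 20 lungs (squares, controls; circles, 14 days; blue, WT; red, KO) for Ngp against S100a9, Ltf against Bpifa1 and Lcn2 against Marco. Spearman rho is 0.63, 0.84 and 0.86 in that order, each over the same 20 lungs.

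No member passed the limits between host genotypes in lungs. In 14-day lungs, KO against WT, the log2 fold changes were 0.08 ± 0.53 for Ngp, -0.16 ± 0.27 for Ltf, 0.19 ± 0.20 for Lcn2 and -0.22 ± 0.27 for Cd177, and edgeR called 0 of 4, as did DESeq2 and an unadjusted p under 0.05, where 0.212% and 8.34% of all genes passed. The SE for Ngp, 0.53, was the largest of the 4. A difference of 1 SE does not pass the limits, so Ngp differences of that size, or larger ones, could go undetected with these lungs. In control lungs Ltf had the largest value of the 4 members, 0.68 ± 0.33 higher in KO lungs (FDR 0.437), and edgeR called 0 of 4 where 0.231% of genes passed, with 0 by DESeq2 and 0 at an unadjusted p under 0.05, beside 11.6% of all genes. The interaction of genotype with tumor passed for 0 of 4 members by edgeR and DESeq2, where 0.0499% of genes passed, with 0 at an unadjusted p under 0.05, beside 8.53% of all genes.

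Tumors held ample Lcn2 and Ltf and few reads of the other 6 members. Ltf measured 2.39 through 7.5 to 11.19 FPKM in tumors of WT hosts and 6.45 through 12.7 to 28.71 in those of KO hosts, and 5 of 6 KO host tumors lay above the highest WT host tumor (4 of 6 in CPM). The difference was 1.05 ± 0.36 (edgeR FDR 0.169; limits FDR under 0.05 and 2-fold). Lcn2 ran from 22.8 through 31.9 to 49.11 FPKM in WT and from 20.51 through 37.6 to 86.82 FPKM in KO hosts, overlapping, at 0.51 ± 0.31 (FDR 0.465). No tested member passed of 2, where 1.06% of all genes did, with 1 (Ltf) at an unadjusted p under 0.05, beside 15.52% of all genes, and 0 by DESeq2. The maturity genes did not pass either, with Cxcr2 at 0.41 ± 0.17 (FDR 0.280), S100a8 at 0.60 ± 0.48 and S100a9 at 0.13 ± 0.46. Of the other granule genes, Cybb, the catalytic subunit of the phagocyte oxidase, and Slc11a1, a metal transporter of phagocyte vesicles, rose by 1.01 ± 0.23 (FDR 0.0306) and 1.09 ± 0.27 (FDR 0.0440), and both are also made by macrophages. Cybb was the 1 of 5 tested specific granule genes to pass in tumors, and Slc11a1 the 1 of 5 gelatinase granule genes, beside 1.06% of all genes. At an unadjusted p under 0.05 there were 4 in each list, beside 15.52% of all genes, and DESeq2 called 1 in each.

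In tumors Ltf and Lcn2 again varied apart, with a rho of 0.15 between them over 12 tumors. Lcn2 had r = 0.67 and rho = 0.73 with Epcam and r = 0.61 and rho = 0.68 with Krt19, epithelial genes. Its rho with S100a8 and S100a9 was 0.22 and 0.29. Without the 2 tumors farthest in Lcn2, r with Epcam was 0.79. The other 3 epithelial genes differed in sign, with Lcn2 rho of 0.59 for Cdh1, -0.48 for Krt8 and -0.21 for Krt18. Those values pool both hosts. In WT hosts Lcn2 had rho of 0.83 with S100a9, -0.43 with S100a8, 0.71 with Epcam and 0.31 with Krt19. In KO hosts these were 0.26, 0.49, 0.49 and 0.49, so no contrast of epithelial with maturity genes is read. Of the airway genes that Ltf varied with in lungs, Bpifa1 and Bpifb1 had no read in any tumor. Ltf had rho from -0.14 (S100a9) through 0.36 (S100a8) to 0.45 (Cxcr2) over the 3 maturity genes and from -0.21 (Krt18) to 0.52 (Krt19) over the 5 epithelial genes. The r with Krt19 was 0.42 over 12 tumors and -0.11 without the 2 farthest in Ltf. Within hosts the rho with Krt19 was 0.09 in WT and 0.83 in KO.

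Between tissues, Ngp and Cd177 were lower in tumors than in the 14-day lungs of the same genotype, as was Ltf in WT hosts. Mpo and Elane were not: their sums in tumors, given above, were no lower than the 6 and 6 reads of Mpo and the 1 and 0 of Elane in WT and KO 14-day lungs. The labels do not say whether a lung and a tumor came from 1 mouse, and the samples were fitted as unpaired. Ngp gave 3 reads over the 6 tumors of each genotype, against 91 over WT and 92 over KO 14-day lungs, a log2 fold change of -4.44 ± 0.87 in WT and -4.50 ± 0.86 in KO hosts. Cd177 fell from 1.36 to 3.34 FPKM in WT 14-day lungs to 0.06 to 0.25 in WT host tumors, without overlap, by 3.64 ± 0.37 in WT and 3.42 ± 0.38 in KO hosts on the log2 scale. The Ngp ranges overlapped in both genotypes through 1 lung each, at 0 FPKM in WT hosts, where tumors reached 0.2, and at 0.36 FPKM in KO hosts, where tumors reached 0.42. Ltf was 4.01-fold lower in tumors of WT hosts, without overlap and past the limits, and differed by -0.83 ± 0.32 (log2) in KO hosts (FDR 0.0219), short of 2-fold. Without replicate 2 or 3 of the KO host tumors it passed there too (-1.06 and -1.05), so a difference between genotypes is not read from these calls. Lcn2 differed by -0.35 ± 0.27 and -0.04 ± 0.26 (FDR 0.240 and 0.890). In all, 3 of 4 tested members passed in WT and 2 of 4 in KO hosts, beside 39.2% and 37.9% of all genes. Ngp and Cd177 had too few reads to be tested among tumors and entered this fit through the lungs, where they are high, so they had to be lower in tumors and nothing is read from those counts. S100a8 and S100a9 were also lower in tumors, at log2 fold changes of -4.23 and -3.90 in WT and -3.54 and -3.69 in KO hosts.

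When the 6 groups were ordered by level and each was compared with its neighbour only, few steps exceeded the spread. For Ngp the KO and WT 14-day lungs stood highest, at 2.72 ± 1.67 and 2.61 ± 2.19 FPKM (SD, n = 6), then WT controls at 0.90 ± 0.58 and KO controls at 0.70 ± 0.49 (n = 4), then KO and WT host tumors at 0.11 ± 0.18 and 0.09 ± 0.10, and no neighbours differed by more than their joined SDs. Camp had the same order, from 2.22 ± 1.79 to 0.11 ± 0.17 FPKM. For Cd177 the 4 lung groups could not be ordered, and only the step from WT controls at 1.67 ± 0.45 to WT host tumors at 0.19 ± 0.08 exceeded the spread. For Lcn2 none did, from KO controls at 66.4 ± 30.6 to WT host tumors at 33.1 ± 9.39. The order for Ltf depended on the scale: WT 14-day lungs stood highest by FPKM and KO controls by CPM, and WT controls lay below the KO host tumors by FPKM and above them by CPM, so no step is read from it. WT host tumors were lowest on both scales.

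Other neutrophil genes were read from lists. Of 19 mature neutrophil genes 3 rose in WT and 2 in KO 14-day lungs, beside 0.574% and 0.262% of all genes, and DESeq2 called 5 in each. Averaged over genotypes, 10 of the 19 rose and 0 fell, beside 0.574% of all genes called in either direction. The list median log2 fold change was 0.91. S100a8, S100a9 and Cxcr2, given above, are among the 10, and the list was chosen with earlier results of these data known. Other examples are Csf3r, the receptor for granulocyte colony-stimulating factor, at 1.29 ± 0.28, Il1b at 1.13 ± 0.27 and Il1r2 at 2.02 ± 0.49. Of 11 specific granule genes 8 were tested and 2 rose, Ngp and Mmp8, the neutrophil collagenase, at 1.53 ± 0.36 (FDR 0.0774), with a list median of 0.07. Like Ngp, Mmp8 met the minimum count through the 14-day lungs, where it is high, and nothing is read from the count of 2. In WT lungs Mmp8 also passed, at 1.67 ± 0.51 (edgeR FDR 0.209), and DESeq2 gave it no adjusted p there. Mmp8 gave 43 and 44 reads over WT and KO controls, 191 and 177 over the 14-day lungs and 18 and 35 over the tumors. Of 5 gelatinase granule genes 1 rose, Mmp9 at 0.92 ± 0.31, which is also on the mature neutrophil list. In the averaged contrast DESeq2 called 9, 1 and 1 genes of these 3 lists. Olfm4, another specific granule gene, gave 6 and 2 reads over WT and KO controls and 25 and 23 over the 14-day lungs, and Fcnb gave 1 read in all lungs.

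Among 8 transcription factors of granulopoiesis, 6 were tested and 0 passed in 14-day lungs averaged over genotypes (edgeR, with 0 at an unadjusted p under 0.05 and 0 by DESeq2), including Cebpb at -0.26 ± 0.13 and Spi1, which encodes PU.1, at 0.21 ± 0.12. Cebpe, the factor of the specific granule stage, gave 11 reads over 20 lungs and 28 over 12 tumors and was not tested. Of 12 granulopoiesis and release signals, 6 were tested in lungs and 2 rose, Csf3r and Il1b, both also on the mature neutrophil list above. Csf3, the colony-stimulating factor itself, gave 4 reads over the 20 lungs and 133 over the 12 tumors (40 in WT and 93 in KO hosts), and in tumors against lungs Cxcl1, a ligand of Cxcr2, was higher by 3.05 in WT and 3.85 in KO hosts (log2), while Cxcl12, the marrow retention chemokine, had log2 fold changes of -2.58 and -1.94.

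Markers of other cell types were read in the same contrast. Of 7 erythroid genes edgeR called 0 at 14 days averaged over genotypes (median 0.15, 0 at an unadjusted p under 0.05, 0 by DESeq2), although the lung with the highest erythroid sum also had the highest Camp. Of the 5 alveolar macrophage genes Marco alone passed, as given above (list median -0.19, 1 unadjusted, 1 by DESeq2). Of 4 cell cycle genes 0 passed (median 0.10, 0 unadjusted, 0 by DESeq2), of 4 monocyte genes 0 (median 0.26, 1 unadjusted, 0 by DESeq2), and the B cell precursor genes, a second sign of marrow cells, had at most 1.45 FPKM summed over the 3 of 4 in the table in any lung. Eosinophil granule genes Prg2 and Epx were at or near 0 in lungs, with no read of either in WT controls or KO 14-day lungs.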

How the data were processed

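Poly(A) RNA of 32 whole-tissue samples (20 lungs, 12 tumors) was sequenced as stranded paired-end libraries. The authors aligned the reads to mm10 with STAR and quantified genes with RSEM; the annotation is not given in the sources used here. The deposited expected count table holds RSEM estimates as whole numbers, and the deposited FPKM table holds the authors' length-normalized values. All columns matched 1 sample each.

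Counts were tested with edgeR 4.0.16 (R 4.3.3; TMM, filterByExpr, quasi-likelihood F-test, Benjamini-Hochberg over all genes tested), with 16029 genes in the 20 lungs, 13830 in the 12 tumors and 16825 in the 32 samples used for tumor against lung. The fits had 1 mean per group. The study's limits were used for 14-day against control lungs (FDR under 0.25 and 1.5-fold) and for KO against WT tumors (FDR under 0.05 and 2-fold). The former were applied here also to the other lung comparisons (no fold limit for the interaction), and the latter to tumor against lung. Of the 8 members, 4 passed the filter in lungs (Ngp, Ltf, Lcn2, Cd177) and 2 in tumors (Ltf, Lcn2). Camp, Ly6g, Mpo and Elane are given as reads. Levels between genes were compared in FPKM only, and log2(FPKM + 1) was used for differences from S100a8. Libraries held 4446323 to 8318711 reads, which limits precision for genes of a few reads. The scripts were tested on simulated data.

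Replicate numbers are shared by the groups. Same-numbered samples correlated in their deviations from group means between -0.34 and 0.214 and not all over 0.1, so the numbers were not used as pairs. Lungs and tumors of the same number had correlations of 0.037 to 0.16 in KO hosts (2 of 6 over 0.1, 4 of 6 highest with their own number) and -0.012 to 0.055 in WT hosts, and the labels do not say whether a number marks 1 mouse. No 2 samples of a group agreed within sampling noise (chi-square per degree of freedom at least 2.43). Alternatives were DESeq2 1.42.0, RLE size factors, no filter, a mean count of at least 10, only the groups compared, the replicate block, FDR 0.05 with no fold limit, and each sample left out in turn. A fit of Camp without 1 erythroid-rich lung was added after the values were seen.

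Named genes were the members, the maturity genes, Clic4, the 8 genes most like Ngp, and of each list those past the limits (up to 4) or else the 2 most abundant. Other genes named (among them Chil1, Chil3, Scgb1a1, Muc5b, Csf3, Prtn3, Ctsg, Fcnb, Cebpb, Spi1, Krt8, Krt18, Krt19, Cdh1, Sftpc, the genes nearest to Ltf, Lcn2 and Cd177, Olfm4, Ms4a3 and Cebpe) were chosen after their values were seen. The members and lists were chosen with earlier results of these data known. Promoters came from RefSeq (GRCm38.p6); all 8 members matched by symbol, Ly6g with 2 entries. Gene positions came from GENCODE vM21 on GRCm38, where all 8 gene identifiers equal those of the count table.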

Additional observations from a re-analysis of the deposited data

Results flagged for a closer look

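Among 60 sets of FPKM values (11 genes in 6 groups, where not all were equal), 8 held a sample farther from the rest than Dixon's limit at 95% allows, where chance gives about 1 in 20. All but 1 of the flagged values came from at most 4 reads. Camp stood apart at 0.96 FPKM in replicate 2 of the WT control lungs (3 reads) and at 0.58 FPKM in replicate 3 of the KO control lungs (2 reads). Ly6g was read in 1 KO 14-day lung only, replicate 6, at 0.89 FPKM, the lung with the high erythroid sum. Elane was above 0 in single samples, at 0.23 FPKM in a KO control lung, 0.25 in a WT 14-day lung, 0.57 in a WT host tumor and 0.3 in a KO host tumor, each from 1 or 2 reads. S100a9 reached 94.1 FPKM in replicate 3 of the KO control lungs, against 60.79 in the next, on 180 reads.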

How the results depend on the processing

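Across the alternatives, the count of members past the limits stayed at 0 for WT lungs, KO lungs, both genotype comparisons in lungs, the interaction and the tumors. For lungs averaged over genotypes it went from 1 to 0 at FDR 0.05 with no fold limit and by DESeq2, to 2 (Ngp and Camp) with no filter, and ranged from 0 to 2 when 1 lung was left out, being 0 without replicate 1 of the WT controls and 2 without replicate 3 of the WT or replicate 2 or 4 of the KO controls. In tumors against lungs it went from 3 to 5 in WT and from 2 to 3 in KO hosts with no filter (in KO hosts also to 3, with Ltf, at FDR 0.05 with no fold limit and without replicate 2 or 3 of the KO host tumors), and with a mean count of at least 10 or with only the groups compared to 2 in WT and 1 in KO hosts. With the block it was 3 and 2. Over the same alternatives, the lowest log2 fold changes at 14 days, averaged over genotypes, were 1.18 for S100a8 and S100a9 and 0.93 for Cxcr2. In KO lungs the lowest were 1.01 for S100a8, 0.96 for S100a9 and 0.77 for Cxcr2. The replicate block is given although the labels do not say whether the numbers pair the samples. It left Ngp past the limits (FDR 0.238). It also turned the near-zero values of Lcn2 in control lungs to -0.0517 and of S100a9 in tumors to -0.111. Values near 0 also changed sign when 1 sample was left out. For KO against WT at 14 days the ranges were -0.25 to 0.49 for Ngp, -0.28 to 0.0122 for Ltf, -0.50 to 0.19 for S100a8 and -0.48 to 0.22 for S100a9. In control lungs they were -0.32 to 0.23 for Lcn2, -0.55 to 0.25 for Ngp, -0.19 to 0.24 for Cxcr2 and -0.0661 to 0.48 for S100a8. For the interaction they were -0.17 to 0.76 for Ngp and -0.0284 to 0.51 for Lcn2, for Cd177 in KO lungs -0.37 to 0.24, for S100a9 in tumors -0.20 to 0.37 and for Lcn2 in tumors against KO lungs -0.34 to 0.12. Counts over all genes moved more: 92 genes in WT lungs became 22 by DESeq2, 58 with no filter, 0 at FDR 0.05 and 152 with the block, and 11 to 176 with 1 lung left out. The 42 in KO lungs became 6 at FDR 0.05 and 129 with the block. The 92 averaged over genotypes became 39, 53 by DESeq2 and 149 with the block. The 34 between genotypes at 14 days became 15, 7 by DESeq2 and 18 with only those groups. The 37 in control lungs became 3, 20 by DESeq2, 7 with no filter and 246 with only those groups. The 8 for the interaction became 1, 195 by DESeq2 and 1 with the block. The 146 in tumors became 347, and 6596 and 6382 between tissues became 12773 and 12514 at FDR 0.05 with no fold limit. With 1 sample left out the counts were 2 to 60 in KO lungs, 2 to 76 in control lungs, 73 to 118 averaged over genotypes, 22 to 52 between genotypes at 14 days, 1 to 127 for the interaction and 113 to 186 in tumors. The cause was not tested. Depth limits Ly6g, Mpo and Elane, with at most 4 reads a sample, and Camp, with at most 17.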
